A study of Mus musculus with 4 samples.

Results

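The H2 genes of mouse chromosome 17, the mouse major histocompatibility complex, were described in Hi-C contact matrices of WT and Firre knockout male mouse embryonic stem cells. The members were all genes of the mm9 annotation on chromosome 17 whose symbol starts with H2-, which gave 42 of 1576 chromosome 17 genes and of 37310 genes in all. They carry 41 symbols, because 2 separate genes are both listed as H2-Q2, and 36 of them are annotated as protein-coding. The matrices count contacts between bins of 40 kb. The H2 genes overlapped 36 bins, and these bins with 200 kb on each side made a region of 87 bins, out of 2382 bins on chromosome 17 and 66382 in the genome.

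By symbol, 30 genes were of class I and 10 of class II, and H2-Ke2 and H2-Ke6 belonged to neither class. Along the chromosome came the K group (H2-K2 and H2-K1), the class II group, the D group (H2-D1 alone), the Q group of 7 genes, the T group of 7 genes with H2-Bl, and the M group of 13 genes. The groups covered 2, 7, 2, 5, 5 and 13 bins in this order.

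Hi-C, which joins and sequences DNA fragments that lie close together in the nucleus, was performed on WT and Firre KO male mESCs after cutting with HindIII. The study asked whether a domain border at the Firre gene on the X chromosome is kept when that gene is deleted. Each group had 2 libraries, technical duplicates by the study's methods, and a single matrix holds both, which leaves the comparisons without replicates and without a test. The WT cells were the N3 line, and the study's methods and a figure legend give feeder cells for the Firre KO culture alone, although a sentence of its results can be read as placing both on feeders. The parent line of the Firre KO cells is not given in the sources used here, and genotype, line and culture cannot be told apart.

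The corrected values gave back whole read pairs, 65611035 for WT and 46635652 for the Firre KO-labelled matrix. Read pairs between chromosomes made up 16.1% and 35.6% of them. The bin chrX:47920001-47960000, which lies wholly inside Firre (listed as 6720401G13Rik, chrX:47908921-47988498), held 1782 read pairs in WT and 2011 in the Firre KO-labelled matrix. The deletion was therefore not visible there as a loss of read pairs, and the second matrix is called by its label throughout. Intervals are 95% counting intervals and cover counting error only.

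Class I molecules of the classical genes H2-K1 and H2-D1 present peptides from inside the cell to CD8 T cells, and class II molecules present peptides taken up from outside to CD4 T cells. The Q, T and M groups hold mostly nonclassical class I genes, many of them close copies of each other. Between class II and H2-D1 lies the class III region with complement and cytokine genes, and the complex as a whole is known as one of the most variable parts of the mouse genome between strains.

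Because many H2 genes are copies, sequence around the cut sites was examined first. Hi-C reads start near HindIII sites, and a read whose whole sequence is present more than once cannot be placed with certainty. The following pairs of windows are shown because they stand at the same place of 2 copies, in the bins with the fewest placeable words. AAGCTT, the HindIII site, is in capitals, and all sequences are from the mm9 reference, 5′ to 3′. The first pair lies at chr17:35537956-35538001 in an exon of Gm8750 and at chr17:35583151-35583196 in an exon of Gm8752, and the second pair lies between genes at chr17:35543843-35543888 and chr17:35589043-35589088, all on the plus strand.
H2-Q4 and H2-Q8 bin, first site: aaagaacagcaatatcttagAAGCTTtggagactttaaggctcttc
H2-Q6 and H2-Q7 bin, first site: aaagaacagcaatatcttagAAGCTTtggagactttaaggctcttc
H2-Q4 and H2-Q8 bin, second site: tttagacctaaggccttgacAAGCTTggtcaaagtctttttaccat
H2-Q6 and H2-Q7 bin, second site: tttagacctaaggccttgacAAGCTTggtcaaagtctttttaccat

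Both pairs were identical over their 46 bases, and 0% of the 31-base words within 100 bases of these sites were unique in the genome. The 2 bins shared 28085 distinct words, the most among 630 pairs of H2 gene bins. The next pair, the bins of H2-T23 with H2-T22 and of H2-T10 with H2-T9, shared 12208.

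Copies also joined both sides of the complex. The windows below, between genes, are close matches of HindIII sites in the H2-K2 bin with the bin that holds most of H2-D1, and of the H2-K1 bin with the same bin. They lie at chr17:34106946-34106991 and chr17:35437240-35437285, and at chr17:34142972-34143017 and chr17:35431002-35431047. The D side is given on the minus strand.
H2-K2 bin: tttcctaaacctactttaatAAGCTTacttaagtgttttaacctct
H2-D1 bin, match to H2-K2: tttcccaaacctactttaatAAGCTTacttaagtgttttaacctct
H2-K1 bin: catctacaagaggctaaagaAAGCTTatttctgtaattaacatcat
H2-D1 bin, match to H2-K1: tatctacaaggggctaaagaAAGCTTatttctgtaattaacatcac

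These pairs differed at 1 and 3 bases. A second pair of the H2-K2 and H2-D1 bins, at chr17:34109298-34109343 and chr17:35407537-35407582, also differed at 1 base, with 77.3% and 82.4% unique words around its sites. The H2-D1 bin shared 1495 words with the H2-K2 bin and 1958 with the H2-K1 bin, ranks 32 and 25 of the 630 pairs. Of the words near the 4 sites printed above, 66.5%, 75.0%, 94.9% and 96.0% were unique in the genome.

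Sites of 2 further genes are shown because their bins held far fewer read pairs in the Firre KO-labelled matrix. The H2-Ab1 site lies in an exon of H2-Ab1 at chr17:34405188-34405233, and the H2-M10.5 site lies just past that gene at chr17:36913362-36913407.
H2-Ab1 site: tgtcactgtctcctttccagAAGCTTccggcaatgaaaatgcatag
H2-M10.5 site: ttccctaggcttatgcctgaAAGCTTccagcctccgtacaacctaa

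All words near the H2-Ab1 site were unique (100%), against 65.3% near the H2-M10.5 site.

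All 36 gene bins were kept by the correction in both matrices. Of the 87 bins of the region, 87 were kept in WT and 86 in the Firre KO-labelled matrix, where chr17:37560001-37600000, beside H2-M2, was dropped. Gene bins held 419 to 4350 read pairs in WT, with a median of 1755, and 309 to 3466 in the Firre KO-labelled matrix. The fewest lay in the bin of H2-M3, a nonclassical gene that presents formylated bacterial peptides, with 419 and 309. The most lay in the first H2-D1 bin, with 4350 and 3466. That bin ends at chr17:35400000 and H2-D1 starts at chr17:35399675, so the bin holds only the beginning of the gene.

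A set of H2 bins held fewer read pairs in the Firre KO-labelled matrix. After the median ratio of all autosomal bins was set to 0, 7 of 36 gene bins (19.4%) were at least 1.5-fold lower there and 0 were higher. Among 58938 autosomal bins, 1.47% were lower and 0.438% were higher by this fold. The lower bins held H2-M10.5, 5 genes of the Q group, the class II genes H2-Ab1 and H2-Aa, and 3 genes of the T group.

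The bin of H2-M10.5, one of the M10 genes expressed in vomeronasal neurons, held 1813 read pairs in WT and 312 in the Firre KO-labelled matrix. Its log2 ratio was -2.08 (-2.26 to -1.91), a 4.24-fold lower count. The neighbouring H2-M10.6 bin came nearest to the threshold without passing it, with 1667 and 828 read pairs and a log2 ratio of -0.55. The other 11 M bins ran from -0.38 for H2-M10.1 to 0.11 for H2-M2, so 1 bin of this group passed the threshold.

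The Q group had the most bins past the threshold, 3 of 5. The bin of H2-Q6 and H2-Q7, which encode surface proteins known as Qa-2, held 1646 read pairs in WT and 493 in the Firre KO-labelled matrix, a log2 ratio of -1.28 (-1.43 to -1.14). The H2-Q4 and H2-Q8 bin held 1529 and 520, a log2 ratio of -1.10, and the bin of H2-Q2 and H2-Q4 held 1762 and 774, a log2 ratio of -0.73. The first H2-Q2 bin, with 1672 and 898, did not pass the threshold, at -0.44. At the end of the group, H2-Q10, which encodes a secreted class I protein of the liver, had 1332 and 908 read pairs and a log2 ratio of -0.10 (-0.22 to 0.03).

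Class II had 1 bin past the threshold. The bin of H2-Ab1 and H2-Aa, the chains of the I-A molecule, held 2228 read pairs in WT and 851 in the Firre KO-labelled matrix, a log2 ratio of -0.93 (-1.05 to -0.82). H2-Ob, a chain of the peptide loading regulator H2-O, lay next to it at -0.44 with 1772 and 950. The bin of H2-Eb1, a chain of the I-E molecule, had 2884 and 1804 and a ratio of -0.22. H2-DMa, a chain of the peptide loading factor H2-DM, had 2225 and 1754 and a ratio of 0.11, and H2-Oa had 2304 and 1757 and a ratio of 0.06.

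In the T group, H2-T10, a nonclassical gene whose product binds gamma delta T cell receptors, shared with H2-T9 a bin that held 2395 read pairs in WT and 1019 in the Firre KO-labelled matrix, a log2 ratio of -0.78 (-0.88 to -0.67). H2-Bl passed the threshold by the least of the 7 bins, with 1351 and 647 and a ratio of -0.61. H2-T23, the gene of the nonclassical molecule Qa-1, shared a bin with H2-T22 that had 2542 and 1672 and a ratio of -0.15. The H2-T3 bin had 1293 and 1048 and a ratio of 0.15, the highest of all gene bins.

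Counting all read pairs, no bin of the classical class I genes H2-K1 and H2-D1 passed the threshold. The H2-K1 bin held 1882 read pairs in WT and 1064 in the Firre KO-labelled matrix, a log2 ratio of -0.37 (-0.48 to -0.26). Both H2-D1 bins lay above 0, with log2 ratios of 0.13 and 0.14.

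**Figure D1:**
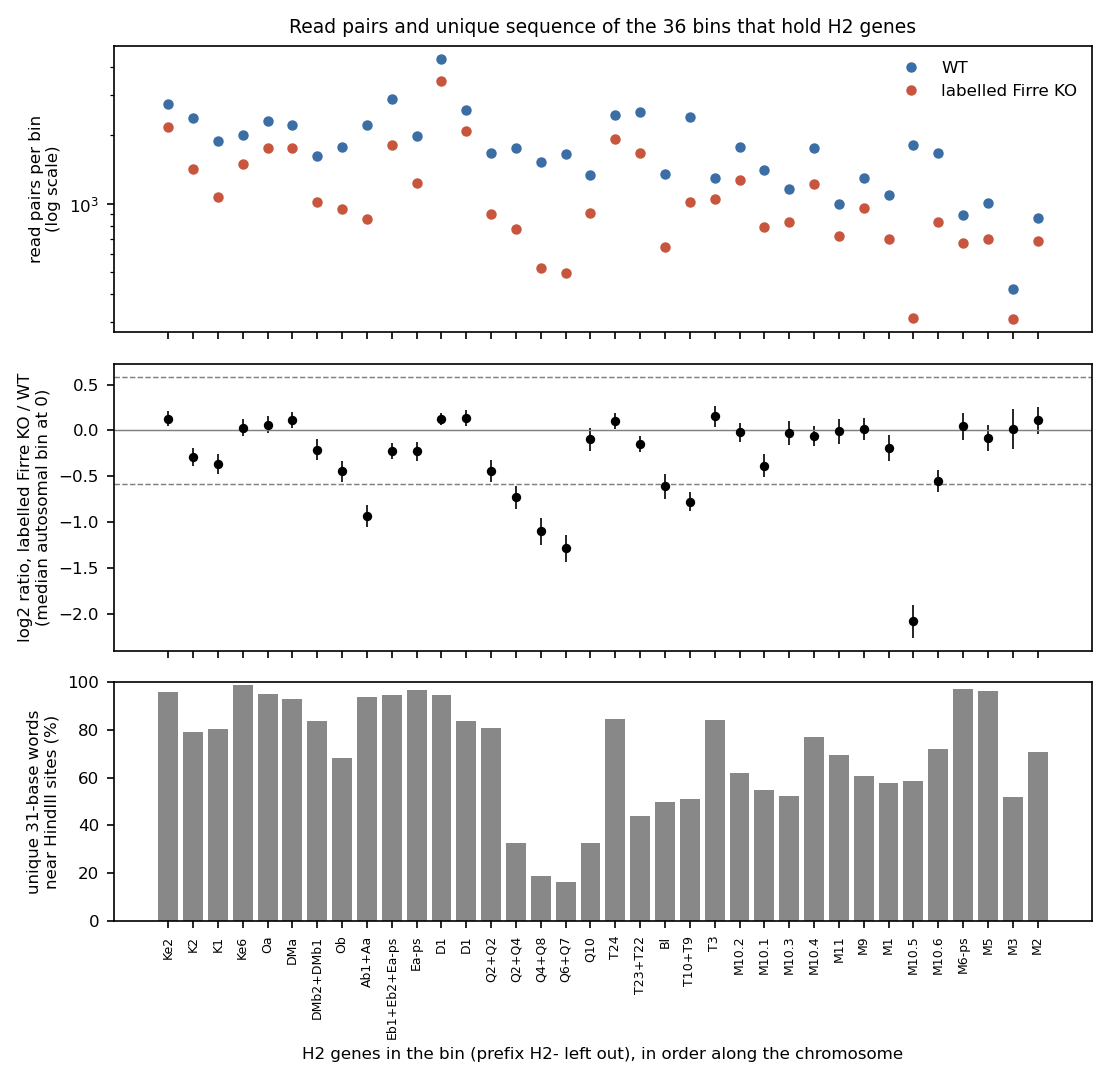
For each of the 36 bins that hold H2 genes, in order along the chromosome, the plot shows read pairs in both matrices (log scale), the log2 ratio of the Firre KO-labelled matrix over WT with 95% counting intervals, and the share of unique 31-base words within 300 bases of HindIII sites. Dashed lines mark 1.5-fold, and the 7 bins below the lower line run from H2-Bl at -0.61 to H2-M10.5 at -2.08.

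None of the 27 neighbour genes lay in a bin past the threshold. Several of them share a bin, and Tapbp, Brd2, Gnl1 and Mog lie, with the larger part of each gene, in bins that also hold H2 genes. With 1.47% of autosomal bins lower, a count of 0 among so few bins does not set them apart from other bins. The lowest was C4b, a complement gene, with 2363 and 1435 read pairs and a log2 ratio of -0.26. The bin of Tap1, Tap2, Psmb8 and Psmb9, which make and carry peptides for class I, had 2213 and 1553 and a ratio of -0.06, although it lies between the class II bins. The 13 bins that lie between the pieces of the region, most of them class III, had 0 bins past the threshold, and the flanks had 2 of 50, chr17:36280001-36320000 at -0.70 and chr17:36840001-36880000 at -0.65, next to the lower T and M bins.

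The lower counts were also read separately within and between chromosomes. Counting only read pairs within chromosomes, 12 of 36 gene bins were lower by 1.5-fold, beside 1.92% of autosomal bins. The H2-K1 bin was among the 12, at -0.65. Counting only those between chromosomes, 5 of 36 were lower, beside 4.03% of autosomal bins. The 5 were among the 7 lower bins, and the T group lost both of its bins, with -0.57 for H2-T10 and H2-T9 and -0.35 for H2-Bl between chromosomes. For H2-M10.5 the log2 ratio was -2.23 within and -1.65 between chromosomes, and for the H2-Q6 and H2-Q7 bin it was -1.55 and -1.42.

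Unique sequence moved with the ratio in part. In the gene bins, a median of 74.6% of words near HindIII sites were unique, against 90.6% in chromosome 17 bins, and the Q bins ran from 16.3% to 80.9%. Across the 36 gene bins the ratio and the share of unique words had Pearson's r of 0.49 and Spearman's rho of 0.51, as a description, since neighbouring bins share copies. Over 2260 chromosome 17 bins these were 0.15 and 0.03. Of 5 gene bins with under 50% unique words, 3 were lower by 1.5-fold, while 12 of 109 such chromosome 17 bins (11.0%) were. The H2-Ab1 and H2-Aa bin was 93.7% unique and still lower, and H2-Q10 was 32.8% unique and near 0. The part of repeated sequence in the deficit was not tested.

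Read pairs to other chromosomes made up 20.2% of the read pairs of gene bins in WT (19.9 to 20.5, Wilson interval) and 48.7% in the Firre KO-labelled matrix (48.2 to 49.2). Chromosome 17 bins as a whole were at 18.5% and 39.95%, while the flanks were at 19.75% to 20.25% (95% interval) and 46.8%, and the bins between the pieces of the region at 21.2% and 47.6%. Among the groups the Q group was highest in both, with 24.4% and 53.9%. In WT the T and M groups were lowest, with 17.5% and 17.3%, and in the Firre KO-labelled matrix the M group was lowest with 46.8%.

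Domain borders were then called with the insulation method, which slides a 480 kb square along the matrix and finds minima of the contacts across each bin. Each matrix had 4 borders in the H2 region. With a tolerance of 1 bin, 3 of the 4 WT borders were shared, beside 32 of 79 WT borders (40.5%) on the rest of chromosome 17.

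The first shared border lay in the H2-K2 bin, next to that of H2-K1. Its strength was 2.11 in WT, rank 5 of 83 borders on chromosome 17, and 3.11 in the Firre KO-labelled matrix, rank 15 of 77. Strengths were higher in the latter along the whole chromosome, with medians of 0.94 in WT and 1.69, so they are compared by rank. Contacts across it were 0.463 of expected (0.423 to 0.509) and 0.332 (0.289 to 0.395). The second lay in the first H2-D1 bin in WT, with strength 1.16, rank 32 of 83. In the Firre KO-labelled matrix it lay 1 bin before that, with strength 1.40, rank 45 of 77. The latter is the bin of Tnf, Lta and Ltb, cytokine genes of class III. Both positions lie where class III ends and the D and Q groups begin. The H2-K2 border was found within 1 bin under 5 of 5 other settings in WT and 4 of 5 in the Firre KO-labelled matrix, and the H2-D1 border under 4 and 2 of 5.

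The third shared border lay in the H2-Bl bin inside the T group. Its strength was 0.81 in WT, rank 49, and 3.58 in the Firre KO-labelled matrix, rank 10. Contacts across it were 0.670 of expected (0.630 to 0.716) from 1923 read pairs and 0.357 (0.322 to 0.405) from 565, a log2 ratio of -0.91 (-1.08 to -0.74). Contacts across the other shared borders were also lower. The ratio was -0.48 (-0.71 to -0.25) at H2-K2 and -0.61 (-0.82 to -0.39) at the first H2-D1 bin. At the bin of Tnf, Lta and Ltb it was -0.65 (-0.85 to -0.44). The same ratio was not computed for borders outside the complex. The WT border was found within 1 bin under only 2 of 5 other settings and the other under 3 of 5. In both matrices it was not called with a 960 kb square or with uncorrected read pairs, and in WT also not with a 240 kb square. The unshared borders lay among the M genes. The WT one lay at chr17:37360001-37400000, the bin before H2-M3, with strength 1.19, rank 29. The other lay at chr17:37040001-37080000, the bin before H2-M6-ps, with strength 1.09, rank 55. They were found under 4 and 2 of 5 other settings. Contacts across the latter were 0.877 of expected in WT and 0.749 in the Firre KO-labelled matrix, a log2 ratio of -0.23 (-0.49 to 0.04). Across the border before H2-M3, contacts were higher in the Firre KO-labelled matrix, 0.836 against 0.584 of expected.

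**Figure D2:**
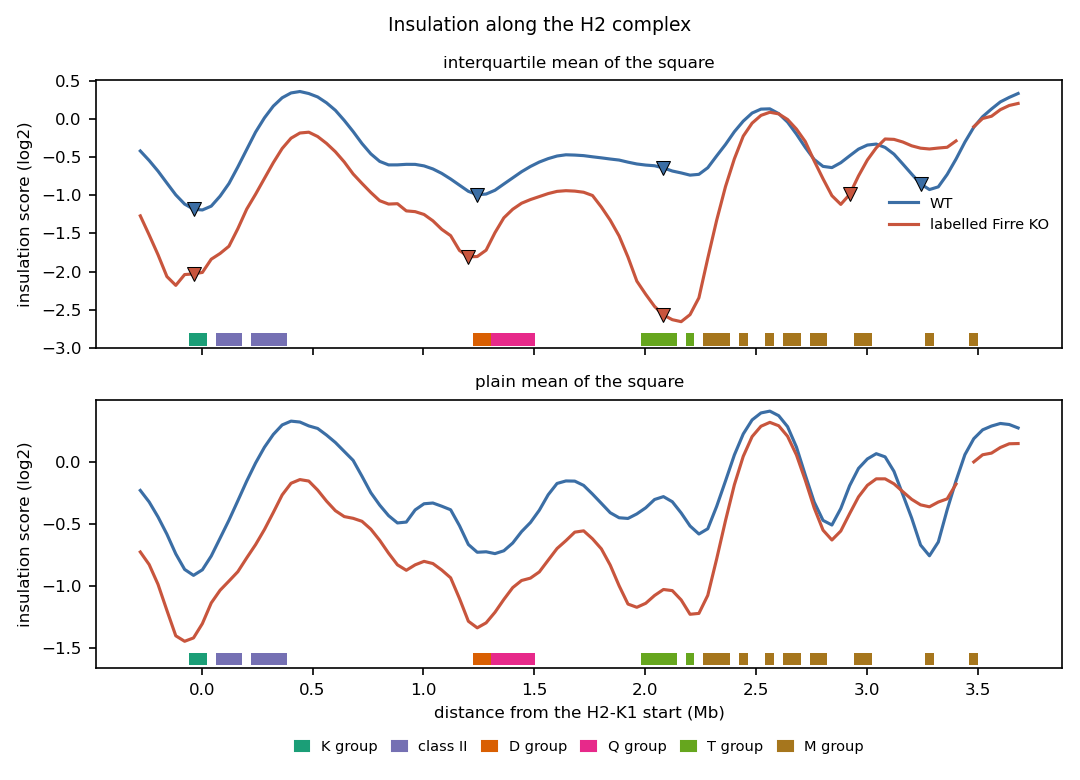
Insulation score (log2) along the complex by distance from the H2-K1 start in Mb, with the interquartile mean of the square in the upper panel and the plain mean in the lower one. Triangles mark the 4 borders called in each matrix, coloured blocks mark the gene groups, and the gap between the curves over the T group, at its median -1.84 in the upper panel, is -0.75 in the lower one.

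Insulation scores over the region had Pearson's r of 0.72 and Spearman's rho of 0.75 between the matrices over 86 bins, against 0.78 and 0.79 on the rest of the chromosome. With the plain mean of the square the order turned, with r of 0.85 in the region and 0.80 outside it. The score was lower by at least 1 in 13 of 86 region bins (15.1%) in the Firre KO-labelled matrix, beside 5.88% of autosomal bins. All 5 T bins were among them, with differences of -1.95 to -1.69, and H2-M10.2 was the sixth gene bin. The lower score was not limited to the T group. The median difference was -0.54 over the region, against -0.03 over autosomal bins. By group the medians were -0.83 for K, -0.79 for class II, -0.77 for D, -0.43 for Q and -0.16 for M. With the plain mean the T group had a median difference of -0.75. The other groups were then at -0.59 for D, -0.57 for class II, -0.47 for K, -0.39 for Q and -0.18 for M. With the plain mean 0 of the region bins were lower by 1. The autosomal share was not computed for the plain mean, so these 2 counts cannot be set side by side.

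Contacts between the class I and class II groups as a whole did not differ beyond counting error. Over 189 bin pairs, they were 0.645 of the value expected at the same distance on chromosome 17 in WT (0.554 to 0.799) from 612 read pairs. In the Firre KO-labelled matrix they were 0.575 (0.445 to 0.863) from 242 read pairs. The log2 ratio was -0.17 (-0.57 to 0.24), but -0.47 (-0.81 to -0.14) with uncorrected read pairs and -0.27 (-0.50 to -0.03) as a ratio of sums, whose intervals lie below 0.

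The class I groups were then taken one by one against class II. Among autosomal pairs of 200 kb windows, 32.3% were lower by 1.5-fold and 15.8% higher. A spread among the groups is therefore not read as a result about them. Class II bins met the Q group at 1.21 of expected in WT (0.977 to 1.49), the highest of the 5 class I groups there, and at 0.578 (0.358 to 0.937) in the Firre KO-labelled matrix, from 105 and 23 read pairs. The log2 ratio was -1.06 (-1.75 to -0.38), and -0.77 (-1.87 to 0.33) when the bins with fewer read pairs were left out. Class II met the adjoining K group at 0.868 and 0.684, a log2 ratio of -0.34 (-0.67 to -0.01), which became -0.17 (-0.46 to 0.13) as a ratio of sums and -0.88 (-1.19 to -0.57) with uncorrected read pairs. With the D group the values were 0.768 and 0.781, a log2 ratio of 0.02 (-0.56 to 0.60). The T group went the other way, with 0.482 in WT and 0.855 in the Firre KO-labelled matrix, but its interval held 0 (log2 0.83, -0.06 to 1.72). The distant M group was low in both, with 0.439 and 0.418.

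Within groups, contacts were near or above the expected value in both matrices. Class II had 1.23 of expected contacts within itself in WT and 1.09 in the Firre KO-labelled matrix, the T group 1.59 and 1.55, and the M group 1.26 and 1.18. The pair of K bins had 1.52 and 1.47, and the pair of D bins 1.13 and 0.926. For the Q group the values were 0.950 and 1.27, a log2 ratio of 0.42 (0.10 to 0.75). That ratio turned to -0.91 with uncorrected read pairs, so the direction for Q depends on the correction. With corrected values none of the 6 groups changed by 1.5-fold within itself. With uncorrected read pairs 4 of them were lower by more than that, with log2 ratios of -0.70 for K, -0.59 for class II, -0.91 for Q and -0.66 for M. No autosomal share was computed with uncorrected read pairs, so neither count is read as a result about the H2 groups.

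The largest difference among the 15 pairs of groups lay between the K and D groups, which hold the classical class I genes. Contacts between the K and D groups, 1240 to 1320 kb apart, were 0.813 of expected in WT (0.431 to 1.43) from 14 read pairs. In the Firre KO-labelled matrix they were 5.58 (4.14 to 7.39) from 52, a log2 ratio of 2.78 (1.90 to 3.66). Contacts between the K and Q groups went from 0.961 to 3.18, a log2 ratio of 1.73 (0.77 to 2.68). That of K and Q fell to 0.74 (-0.63 to 2.11) without the bins with fewer read pairs and to 0.80 (-0.13 to 1.74) with uncorrected read pairs. Of the 15 pairs of groups, 3 were at least 1.5-fold lower and 4 higher in the Firre KO-labelled matrix, with a median log2 ratio of -0.34. Among autosomal pairs of 200 kb windows up to 3600 kb apart, 32.3% were lower and 15.8% higher, with a median of -0.18, so these counts are not read as a result about the H2 groups.

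**Figure D3:**
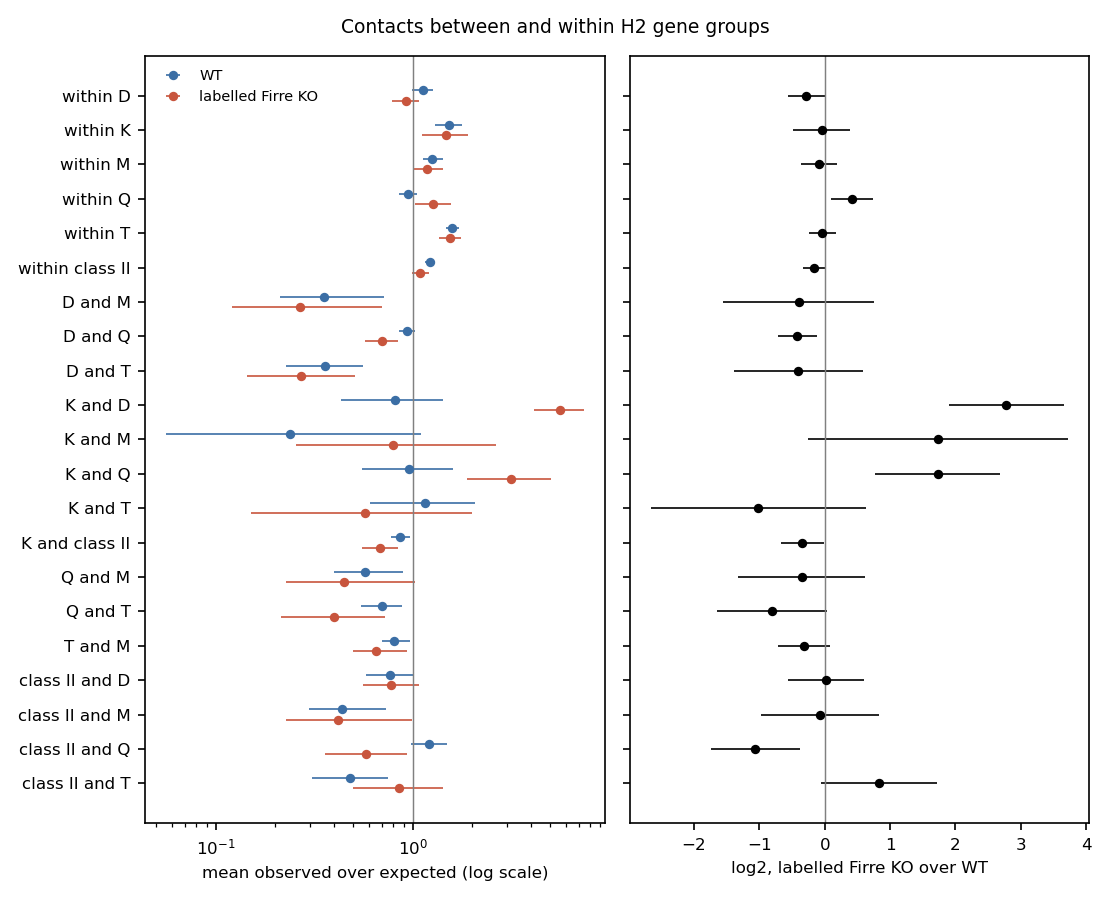
Mean observed over expected contacts (log scale, left) between and within the 6 H2 gene groups in both matrices, and the log2 ratio of the Firre KO-labelled matrix over WT (right), with 95% counting intervals. Most pairs lie near or below 0 on the right, while K and D stand at 2.78.

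In the Firre KO-labelled matrix most read pairs between K and D lay in 1 H2-D1 bin. The H2-K2 bin and the second H2-D1 bin, chr17:34080001-34120000 and chr17:35400001-35440000, shared 4 read pairs in WT and 24 in the Firre KO-labelled matrix. At this distance 2.41 and 1.64 were expected, so the counts were 1.66 and 14.6 times expected. The H2-K1 bin and the same H2-D1 bin shared 2 and 16 read pairs, 0.774 and 9.24 times expected. With the first H2-D1 bin, H2-K2 shared 5 and 7 read pairs and H2-K1 shared 3 and 5, which in the Firre KO-labelled matrix was 4.04 and 2.73 times expected. One bin beyond, in the first H2-Q2 bin, the counts were 4 and 3 for H2-K2 and 4 and 1 for H2-K1. The H2-Q4 and H2-Q8 bin shared 1 read pair in WT and 5 in the Firre KO-labelled matrix with each K bin, from 0.458 to 3.32 times expected for H2-K2 and from 0.438 to 3.13 for H2-K1. The values of these bin pairs are given without correction. With correction, those of the H2-Q4 and H2-Q8 bin in the Firre KO-labelled matrix were 8.33 for H2-K2 and 10.7 for H2-K1. Those of the second H2-D1 bin were 10.3 and 8.59.

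Bin pairs with such values were then counted along the complex. Without correction, 3 of 2781 bin pairs at least 1 Mb apart reached 8 times expected in the Firre KO-labelled matrix. The 2 with at least 8 read pairs were those of H2-K2 and H2-K1 with H2-D1. In WT 0 of 2850 reached 8 times expected. With corrected values the H2-Q4 and H2-Q8 bin also passed 8 times expected with both K bins in the Firre KO-labelled matrix, from 5 read pairs each. Among autosomal bin pairs at the K to D distances alone, 1240 to 1320 kb, 0.0939% reached 8 times expected in WT and 0.508% in the Firre KO-labelled matrix. Such bin pairs thus also occurred elsewhere. No autosomal share was computed for all bin pairs at least 1 Mb apart, so the 3 of 2781 are called neither rare nor frequent. No minimum of read pairs was set there, but on chromosome 17 1.64 to 1.83 were expected at these distances in the Firre KO-labelled matrix. Reaching 8 times expected therefore already takes more than 8 read pairs. Without the second H2-D1 bin the log2 ratio of K and D fell to 1.28 (-0.02 to 2.58). The bins involved are those whose matching HindIII windows are shown above, but matching windows were looked for only in these bins and in the Q copies. Other bin pairs over 1 Mb apart shared more words. The H2-Ob bin shared 3765 with the H2-T24 bin and 3687 with the H2-Q2 and H2-Q4 bin. Neither was among the 3 bin pairs at 8 times expected. The part of these copies in the contact was not tested, and the H2 sequences of the cell lines themselves were not analysed here.

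**Figure D4:**
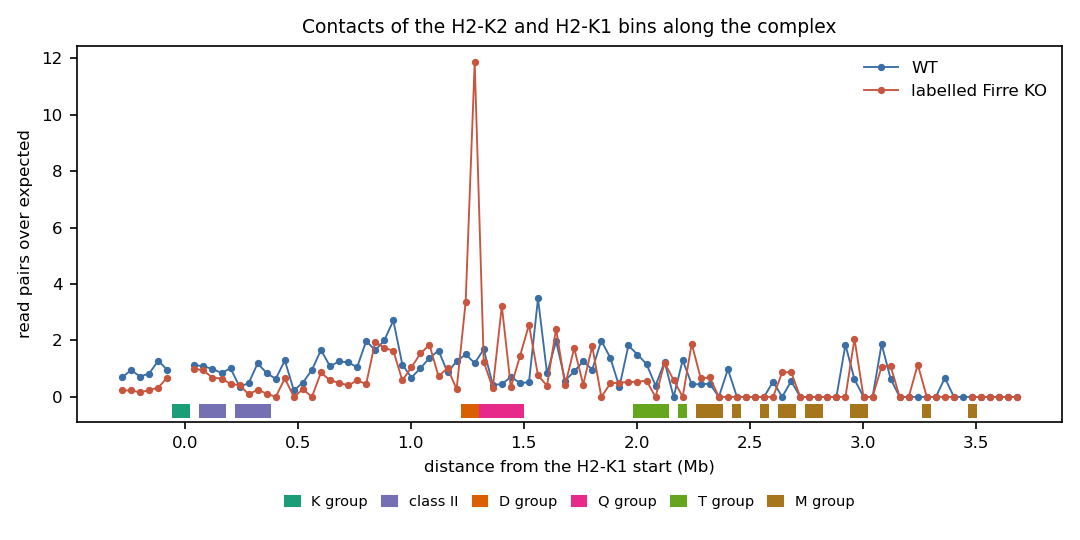
Read pairs over expected between the bins of H2-K2 and H2-K1 and each other bin of the complex, by distance from the H2-K1 start in Mb, without correction. In the Firre KO-labelled matrix the H2-D1 bin stands at 11.9 times expected from 40 read pairs, against 1.20 from 6 in WT.

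**Figure D5:**
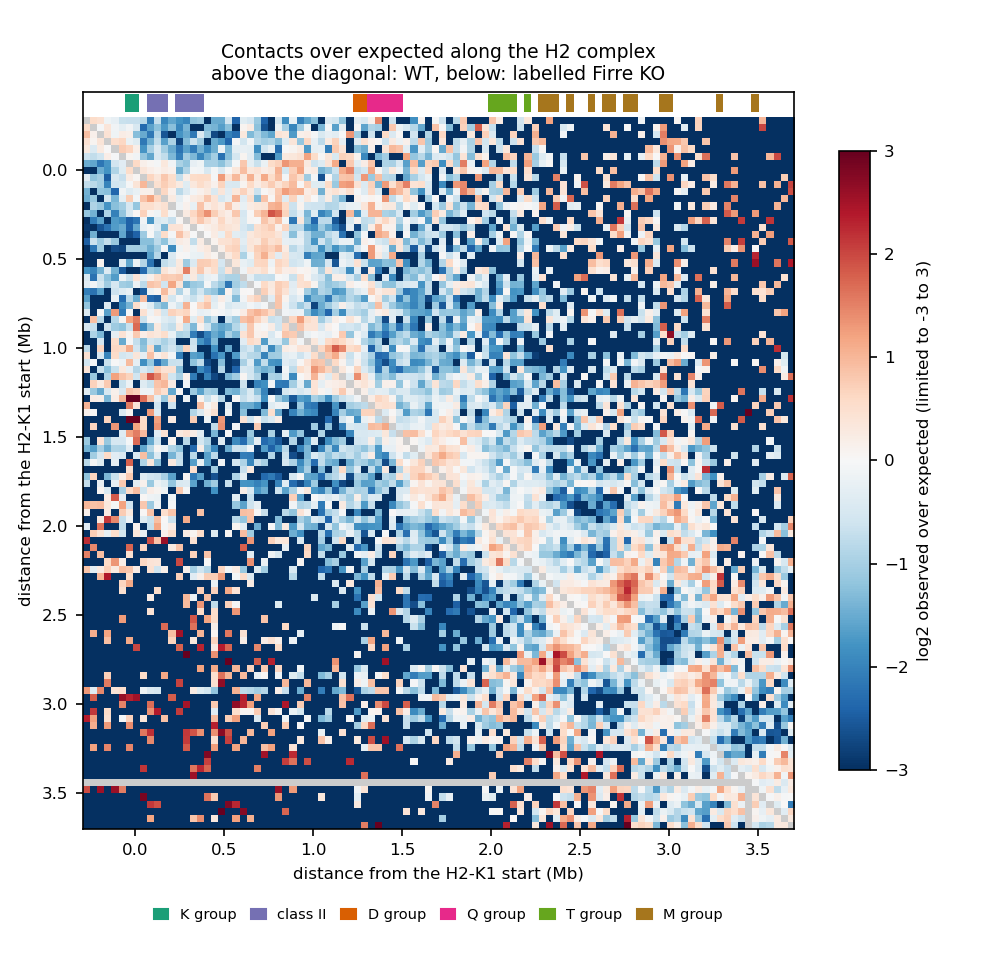
Observed over expected contacts (log2, limited to -3 to 3, empty bin pairs at the lower limit) for each pair of 40 kb bins along the complex, with WT above and the Firre KO-labelled matrix below the diagonal. Both axes give the distance from the H2-K1 start in Mb, and coloured blocks mark the gene groups. Grey marks the diagonal, which is left out, and the bin dropped in the Firre KO-labelled matrix.

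Pou5f1, the pluripotency factor OCT4, lies just past the Q group, and its bin met class II at 1.24 of expected in WT and 0.325 in the Firre KO-labelled matrix, from 32 and 6 read pairs, a log2 ratio of -1.93 (-3.21 to -0.64). Of the autosomal 200 kb window pairs, 32.3% were lower by 1.5-fold and 15.8% higher. With the K group the Pou5f1 bin went the other way, from 0.355 to 2.11 of expected, a log2 ratio of 2.57 (0.30 to 4.85) that rests on 2 and 7 read pairs. With the Q group it was at 0.792 and 0.954, a log2 ratio of 0.27 (-0.10 to 0.64). The class III bins taken here run from chr17:34720001 to chr17:35160000, a part of class III without the bin of Tnf, Lta and Ltb. They met class II at 1.20 and 0.893, a log2 ratio of -0.43 (-0.62 to -0.23), and the Q group at 0.610 and 0.339.

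Compartments were scored last, as the first eigenvector of chromosome 17 in 200 kb windows, with gene-dense windows positive. This eigenvector held 21.6% of the variance in WT and 13.4% in the Firre KO-labelled matrix. The scores of both matrices had Pearson's r of 0.70 over 455 windows. The window of H2-K1 was positive in both, at 1.41 and 1.22, and so were the windows of the D, Q and T groups. The M group was mostly negative, with medians of -0.85 and -1.06 over 6 windows, and only the window of H2-M5 and H2-M6-ps was above 0 in WT (0.64). Class II stood between. The window of H2-Oa, H2-DMa and H2-Ob scored 0.97 and 0.59. That of H2-Ab1, H2-Aa and H2-Eb1 scored 0.69 in WT and -0.68 in the Firre KO-labelled matrix, the widest change of sign in the complex. With uncorrected read pairs the class II median in the latter matrix was 0.79, and with 400 kb windows 0.23, in place of -0.05. The sign of this median, which in the main setting rests on 2 windows, thus depends on the processing. The window of H2-Ab1, H2-Aa and H2-Eb1 was not examined by itself under these settings.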

How the data were processed

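The authors pooled both libraries of a group, mapped reads to mm9 and filtered, binned and corrected them with HiC-Pro 2.7.8. Each deposited value is the contact signal of 2 bins of 40 kb, scaled by iterative correction so that all kept bins have the same total. A corrected value equals a whole number of read pairs times a weight for each bin. Weights were fitted, and 100% of entries came out within 0.05 of a whole number. Bin tables matched the mm9 reference, and gene positions came from GENCODE M1. Insulation used an own implementation with the study's settings (480 kb square, 320 kb delta span, 160 kb smoothing, interquartile mean, strength above 0). Expected contacts were the chromosome 17 mean at each distance. Intervals of contacts came from weighted Poisson counts, those of read ratios from exact binomial limits. All H2 genes were described by group, and those singled out were H2-K1, H2-D1, the Q and T genes with lowest and highest read pairs, named class II genes, H2-M3, genes in border bins and 27 neighbours. The members and lists were chosen with earlier results of these data known, and read ratios, word counts and the K to D comparison were chosen after seeing the data. Scripts ran in Python 3.11.15 with NumPy 2.4.6 and SciPy 1.17.1 and were tested on simulated data.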

Additional observations from a re-analysis of the deposited data

How the results depend on the processing

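No paired analysis was possible because both libraries of a group were pooled in 1 matrix, which also kept single libraries from being left out. Of 123 values under alternative settings, for 29 results, 92 stayed within the main interval or tolerance (1.5 times for counts, 0.05 for r, 0.2 for scores, 1 for a percentage of bins). Some of these could not or hardly move. Class I and class II bins are already at least 80 kb apart, so requiring 2 bins of distance left their values as they were. The ratio of sums equals the main value for K and for D, with 1 bin pair each. Using only bins kept in both matrices dropped 1 flank bin of the region. The 92 is therefore not a measure of stability. With no flank, 100% of bins were kept in the Firre KO-labelled matrix, in place of 98.9%, and 2 of its borders lay in the region. A 960 kb square left 2 borders in each matrix and 1 shared. The correlation of insulation was 0.78 with a 240 kb square, 0.90 with 960 kb, 0.85 with the plain mean and 0.49 with uncorrected read pairs. The alternatives of the next 3 sentences were chosen after seeing the data. The T group's insulation difference of -1.84 became -0.75 with the plain mean and -0.73 with a 240 kb square, and 0 region bins were then lower by 1 with the plain mean, in place of 13. The K and D ratio was 1.28 without the second H2-D1 bin, and the K and Q ratio 0.74 without the bins with fewer read pairs. The 7 bins with fewer read pairs became 12 within chromosomes and 3 at a threshold of 2-fold. Autosomal shares were not computed at 2-fold or for the plain mean. Among the alternatives planned earlier, uncorrected read pairs gave log2 ratios of -0.88 for K and class II, and within groups -0.70 for K, -0.59 for class II, -0.91 for Q (reversed from 0.42), -0.40 for T and -0.66 for M. Uncorrected read pairs moved the median compartment score of gene bins to 1.20 in WT and 0.91 in the Firre KO-labelled matrix, and that of class II to 1.27 and 0.79. With 400 kb windows, the median of gene bins in the latter was -0.42, and that of class II was 1.05 in WT and 0.23 in the latter. With autosomes only, read pairs between chromosomes made up 19.8% and 47.9% of those of gene bins. The causes were not tested. Depth limits the contacts of distant groups, some of which rest on under 20 read pairs.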
